A study of Mus musculus with 2 samples.

Results

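The JAK, STAT and SOCS signaling genes form the core of the pathway by which cytokine receptors reach the nucleus. The 10 genes described here were the kinases Jak1, Jak2, Jak3 and Tyk2, the transcription factors Stat3, Stat5a and Stat5b, and the inhibitors Socs1, Socs2 and Socs3. Every array probe whose transcript identifier belongs to 1 of these genes was taken, whatever its signal, which gave 15 of the 55661 probes on the array and 10 of the 21360 genes that could be named. Jak3, Stat3 and Stat5b had 2 probes each, Socs2 had 3, and the other 6 genes had 1.

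The RNA came from LSK cells, the lineage-negative, Sca-1-positive and c-kit-positive fraction of mouse bone marrow, which holds the hematopoietic stem cells and the earliest progenitors. One condition was nondiabetic C57BL/6J mice and the other was C57BL/6J mice made diabetic with streptozotocin (STZ), a toxin taken up by pancreatic beta cells. Each condition was 1 Agilent single-color array, hybridized with material from 3 mice (8.3 ng of RNA before amplification), so no value has a replicate and no difference was tested. The labels call the mice of both conditions female, whereas the methods of the study describe male mice for its diabetes experiments, and neither source gives how long the mice of these arrays had been diabetic. The question addressed by the pair of arrays is which transcripts differ between LSK cells of diabetic and nondiabetic mice.

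Janus kinases (JAKs) sit on the inner tails of cytokine receptors and phosphorylate them, and each other, once a ligand brings the receptor chains together. STAT proteins dock on the phosphorylated receptor, are phosphorylated in turn, pair up and enter the nucleus, where most pairs bind the letters TTCNNNGAA. The SOCS genes are among those switched on by STATs, and their proteins bind JAKs and receptors and damp the signal. In blood stem cells signaling through Jak2 and Stat5 is known to maintain the stem cell pool, while granulocyte colony-stimulating factor and the interleukin-6 family act mainly through Stat3.

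Intensities below are the scanner software's processed signals, and the value after ± is that software's own error estimate for the spot. The log2 ratio is diabetic over nondiabetic after each array was divided by its 75th percentile (168 on the nondiabetic and 182 on the diabetic array), and its ± is the same error carried through. The ± of a ratio treats repeat spots of a probe as independent, although they share the RNA of their array. It is therefore smaller for probes printed several times, among them 1 Stat3 probe and the Batf probe. Neither error covers differences between mice, sorts or amplifications. A probe is called detected where the scanner software marked it as well above background. A ratio is given where both arrays detected the probe, a bound where 1 array did and the bound came to over 1-fold, and no value otherwise. The software detected 62.7% of nondiabetic and 63.9% of diabetic spots, and its 308 negative control spots had median intensities of 2.35 and 2.32.

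Both genes of the gate were detected. Kit was at 4635 and 4735, Ly6a (which encodes Sca-1) at 475 and 701, and Cd34 at 3888 and 4902, nondiabetic first, and both arrays detected 8 of 9 genes of the early progenitor list. Other members of that list differed more, in both directions: Mecom, a stem cell transcription factor, was at 182 and 86.1 (log2 ratio -1.20), Procr, a stem cell surface protein, had a log2 ratio of -0.59, and Slamf1, another, was detected in diabetic cells alone with a log2 bound of 1.37. The summed intensity of the erythroid list was 3243 on the nondiabetic and 7187 on the diabetic array. Both arrays detected 5 of its 6 genes, with Hba-a1 and Hbb-b1 at log2 ratios of 1.21 and 1.02 and Klf1 at -0.30. The mature myeloid list, with all 6 of the genes that had a probe detected on both arrays, summed to 40331 and 40180. Itgam, which many lineage panels target, supplied 34686 and 35189 of these. S100a8, Cd14 and Csf1r had log2 ratios of -1.48, -0.72 and -0.34, while S100a9 and Adgre1 were at 0.10 and 0.94. Their part in the values below was not tested.

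Of the 10 genes, Socs2 and Socs3 were the only ones with a probe past a 2-fold limit in either direction. They lay on opposite sides. This was 1 probe higher and 1 lower of 13 with a ratio or bound, beside 11.2% and 11.2% of all such probes. Socs2 was undetected in nondiabetic LSK cells and was detected by 2 of its 3 probes in diabetic LSK cells. Of all probes, 5.47% were detected on the diabetic array alone. Socs3 was 2.35-fold lower in diabetic LSK cells. The kinases and the STAT factors all stayed under 2-fold, with log2 ratios from -0.32 to 0.49. With another background correction (normexp, which adds an offset of 50), Socs3 was at -0.45 and the higher Socs2 bound at 0.65, and neither gene was past 2-fold. In sorted cells measured in bulk, fewer cells of a type and less RNA per cell cannot be told apart.

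**Figure D1:**
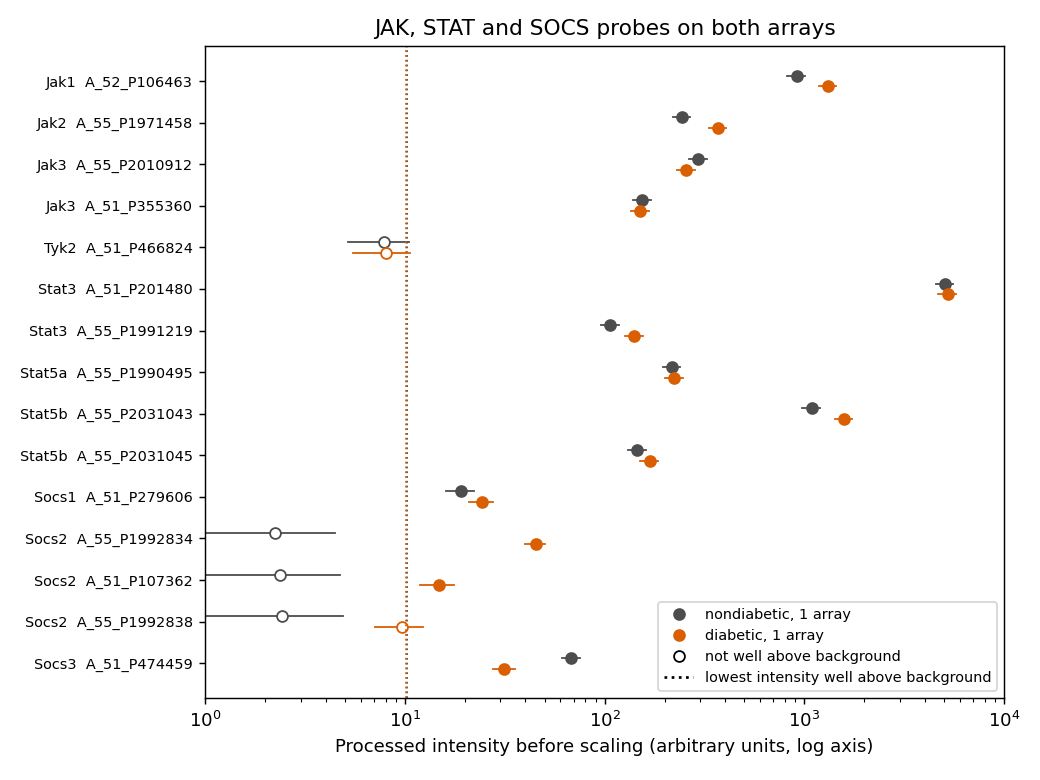
Processed intensity of each JAK, STAT and SOCS probe on the nondiabetic and the diabetic array (log axis), with the scanner software's error as bars, filled points for detected probes, and the lowest detected intensity as dotted lines. Socs2 moves from the level of the negative controls to above it, Socs3 drops from 68.1 to 31.4, and most other probes lie close to their partner.

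Jak1, the kinase shared by the interferon, interleukin-6 and common gamma chain receptors, had an intensity of 914 ± 91.4 in the nondiabetic sample and 1317 ± 132 in the diabetic sample. The log2 ratio was 0.41 ± 0.20, or 1.33-fold. Jak2, which serves the erythropoietin and interleukin-3 receptors, was at 243 ± 24.4 and 369 ± 37.0, with a log2 ratio of 0.49 ± 0.20, or 1.4-fold. Both kinases read higher in diabetic cells by a little more than 2 times the scanner error, and both stayed under the 2-fold limit.

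Jak3 pairs with the common gamma chain of the lymphoid interleukin receptors. The probe for transcript NM_001190830 was at 295 ± 29.6 in nondiabetic cells and 256 ± 25.7 in diabetic cells, giving a log2 ratio of -0.32 ± 0.20. The probe for NM_010589 was at 154 ± 15.6 and 151 ± 15.3, a log2 ratio of -0.15 ± 0.21. The 2 Jak3 probes had the same sign, differed by 0.17 on the log2 scale, and both lay within 2 times the scanner error of 0. Tyk2, which serves type I interferon and interleukin-12 family receptors, was at 7.83 ± 2.63 and 8.01 ± 2.54. Neither array detected it, so its single probe gives no ratio.

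Stat3, the main factor of interleukin-6 family signaling, had the best measured probe of the set, printed 10 times on each array. Its 10 spots ran from 4819 to 5243 with a median of 5145 in nondiabetic cells, and from 5067 to 5372 with a median of 5236 in diabetic cells. The ranges overlapped, and 9 of 10 spots were brighter on the diabetic array before the arrays were scaled. After scaling, the log2 ratio was -0.08 ± 0.06, and the 10 spots gave ratios from -0.12 to -0.02 with an SD of 0.03 between spots. The sign of this ratio therefore rests on the scaling, since the 75th percentile of the diabetic array was the higher of the pair. The other Stat3 probe was far dimmer, at 107 ± 10.9 and 141 ± 14.3, with a log2 ratio of 0.28 ± 0.21. The Stat3 probes differed by 0.36 on the log2 scale and had opposite signs.

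Stat5a and Stat5b encode the closely related factors that act below the erythropoietin and interleukin-3 receptors. Stat5a was at 218 ± 21.9 in nondiabetic cells and 223 ± 22.4 in diabetic cells, with a log2 ratio of -0.08 ± 0.21. The brighter Stat5b probe was at 1087 ± 109 and 1583 ± 158, with a log2 ratio of 0.43 ± 0.20, or 1.34-fold. The dimmer Stat5b probe was at 146 ± 14.8 and 168 ± 17.0, with a log2 ratio of 0.09 ± 0.21 that turned to -0.02 under another background correction. Only the brighter Stat5b probe lay more than 2 times the scanner error from 0, and the Stat5b probes differed by 0.34. Stat5b, Stat5a and Stat3 are neighboring genes on chromosome 11, and their 5 probes had log2 ratios from -0.08 to 0.43 with a median of 0.09.

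Socs1, an inhibitor that binds the JAK catalytic domain directly, was dim on both arrays, at 19.0 ± 3.04 in nondiabetic cells and 24.3 ± 3.41 in diabetic cells. Its log2 ratio was 0.24 ± 0.31, which is less than the scanner error. Both values were still above the lowest intensities that the software counted as detected, 10.2 and 10.1.

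Socs2, an inhibitor best known from growth hormone signaling and also a STAT5 target, had 3 probes. The brightest, A_55_P1992834, was at 2.24 ± 2.24 in nondiabetic cells, the level of the negative controls, and at 45.2 ± 5.06 in diabetic cells. Its raw spot signal was 41 over a local background of 34 in the nondiabetic sample and 87 over 29 in the diabetic sample. Because 1 side was undetected, only a bound can be given, and by this probe diabetic cells had at least 4.08-fold higher Socs2.

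A second Socs2 probe, A_51_P107362, was printed 10 times, and 9 spots were kept after 1 was left out as an outlier. The kept spots ran from 2.09 to 2.57 with a median of 2.42 in nondiabetic cells, and from 8.48 to 22.6 with a median of 14.8 in diabetic cells. None of the nondiabetic spots was detected (0 of 9), whereas 8 of 9 diabetic spots were, and all 9 read higher in the diabetic sample. The ranges of the kept spots did not overlap, but the spots of 1 array share its RNA and are not replicates of the condition. Raw signals were 34 to 40.5 over local backgrounds of 26 to 36 in the nondiabetic sample and 50 to 61.5 over 24 to 32 in the diabetic sample. The bound from this probe was at least 1.33-fold higher. The spot left out as an outlier was detected on both arrays, at 12.3 and 31.2, nondiabetic first. Its nondiabetic value lay inside the range of the kept diabetic spots. With this spot included the log2 bound moved from 0.41 to 0.52.

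The third Socs2 probe, A_55_P1992838, was at 2.43 ± 2.44 and 9.71 ± 2.61 and was detected on neither array. All 3 Socs2 probes read higher on the diabetic array, 2 of them were detected there alone, and the bounds of these 2 differed by 1.62 on the log2 scale. The 3 probes read the same RNA, so they are not replicates of the condition. Among all probes, 5.47% were detected on the diabetic array alone and 4.15% on the nondiabetic array alone.

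**Figure D2:**
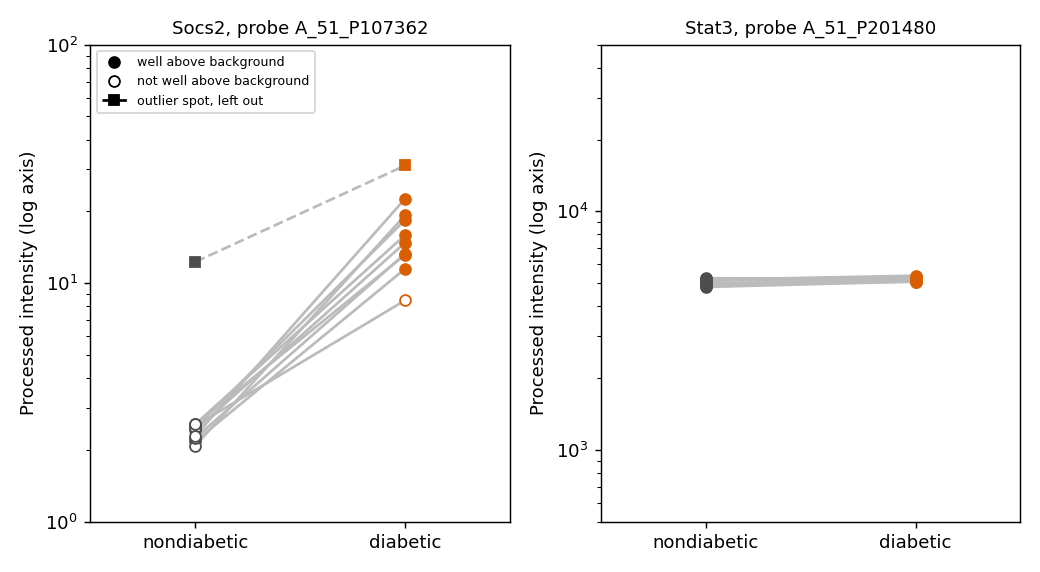
Processed intensity (log axes) of each of the 10 spots of the Socs2 probe (left) and the Stat3 probe (right) on the nondiabetic and diabetic array, with lines joining the same spot position, open circles for undetected spots and squares for the outlier spot left out. The Stat3 spots of both arrays overlap with medians of 5145 and 5236. The kept Socs2 spots lie at 2.09 to 2.57 on the nondiabetic and 8.48 to 22.6 on the diabetic array. The outlier spot was detected on both arrays, at 12.3 and 31.2.

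Socs3, the inhibitor that acts on receptors containing gp130 and on the granulocyte colony-stimulating factor receptor, was at 68.1 ± 7.25 in nondiabetic cells and 31.4 ± 3.99 in diabetic cells. Its log2 ratio of -1.23 ± 0.24 made it 2.35-fold lower, the only probe of the 15 past 2-fold in that direction. It was detected on both arrays but rests on 1 probe with 1 spot per array. With all probes detected on both arrays split by intensity into 3 classes of equal size, Socs3 fell in the dimmest, where repeat spots of a probe had a median SD of 0.25 for the log2 ratio.

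Among the 9 of these genes with a start region to read, which leaves out Socs2, only Socs3 held the STAT pairing letters TTCNNNGAA, which read the same on both strands. Windows from 250 bases before to 50 bases after the transcript start (RefSeq, GRCm38.p6) numbered 11, and 1 of them held the motif. Among all 32851 windows 8.30% held it. The bases before the Socs3 start are shown because they carry this match, with the motif in capitals, 5′ to 3′ on the minus strand of chr11:117969367-117969616.
Socs3: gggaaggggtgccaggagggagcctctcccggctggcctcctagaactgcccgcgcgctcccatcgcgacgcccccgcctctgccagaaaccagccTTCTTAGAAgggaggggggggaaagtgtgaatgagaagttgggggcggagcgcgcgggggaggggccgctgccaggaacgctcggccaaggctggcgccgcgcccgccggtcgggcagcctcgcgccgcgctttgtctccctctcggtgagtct
The match TTCTTAGAA begins 154 bases before the transcript start. A match of letters does not show that a STAT protein binds there, and no match in a window says nothing about binding elsewhere.

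Read against the array as a whole, the share of these probes past 2-fold was near or under that of all probes. Of the 13 with a ratio or a bound, 1 was past 2-fold toward higher and 1 toward lower in diabetic cells, beside 11.2% and 11.2% of the 37791 such probes overall. The 2 Socs2 probes entered this count only because they were detected in diabetic cells. Over the 11 probes measured on both arrays, 6 were higher and 5 lower, 0 and 1 of them past 2-fold beside 8.96% and 9.12% of all 32506 such probes, with a median log2 ratio of 0.09 beside -0.02 for all of them. Of these 11, 10 had a log2 ratio under 0.5 in size, as had 59.3% of all such probes. The 4 that lay more than 2 times the scanner error from 0 were those of Jak1, Jak2, the brighter Stat5b probe and Socs3, and 44.3% of all such probes lay that far.

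Brightness bears on these shares. Of the 11 probes, 5 were in the brightest class, 4 in the middle one and 2, Socs1 and Socs3, in the dimmest. In the brightest class 3.92% of all probes were higher by 2-fold or more and 3.45% lower, in the middle class 12.1% and 11.9%, and in the dimmest 10.8% and 12.0%. Socs3 thus lay in a class where 2-fold differences between these arrays were common. Jak1, Jak2 and the brighter Jak3, Stat5b and Stat3 probes lay in the class where such differences were few.

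**Figure D3:**
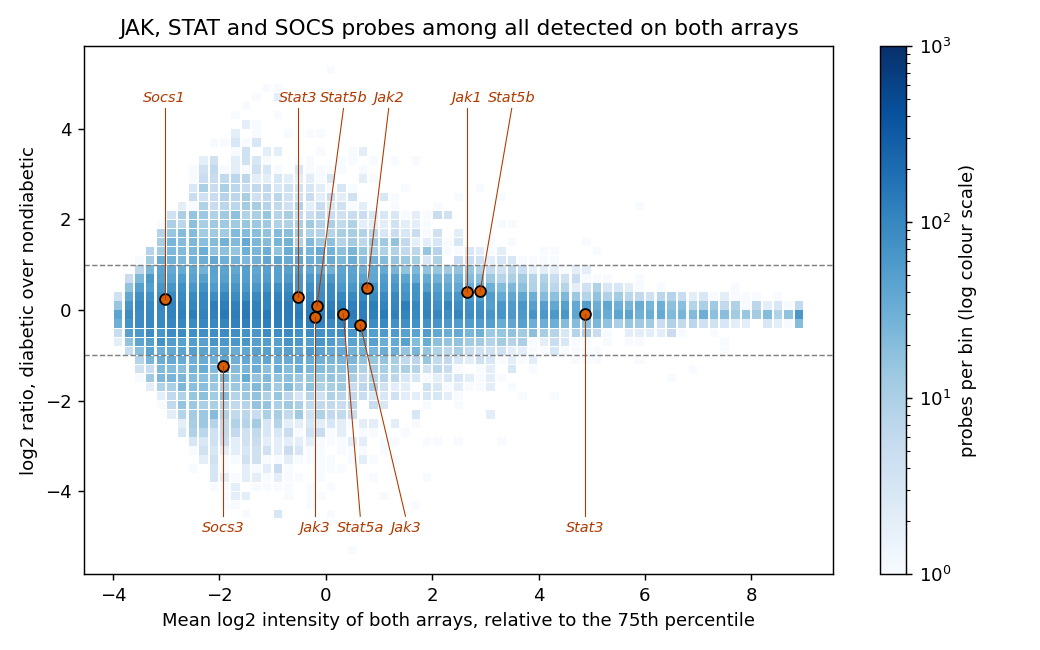
Log2 ratio of diabetic over nondiabetic against the mean log2 intensity relative to the 75th percentile, for all probes that both arrays detected, shaded by number, with the 11 JAK, STAT and SOCS probes among them marked and 2-fold as dashed lines. The shaded cloud is narrow at high intensity, widens below it and narrows again at the lowest intensities, and Socs3 at -1.23 lies in the wide part.

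**Figure D4:**
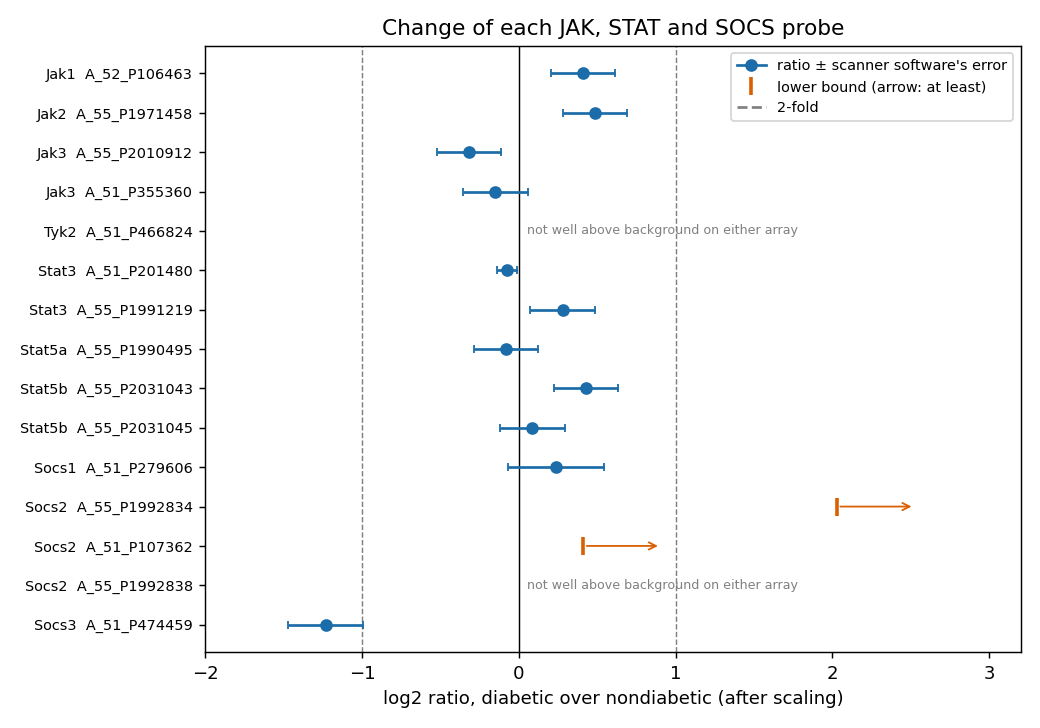
Log2 ratio of each probe with the propagated scanner error as bars and arrows for bounds, against the 2-fold limits. The kinase and STAT probes lie between -0.32 and 0.49, Socs3 at -1.23, and the Socs2 bounds at 2.03 and 0.41.

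The wider pathway was read through 99 further genes, each by its brightest probe. Of these, 77 were detected on both arrays and 19 on neither. A ratio or bound could be given for 79, beside 15192 of the 21360 named genes. Of these 79, 6 were higher and 11 lower by 2-fold or more, beside 11.0% and 10.1% of the 15192 genes with a value. Their median log2 ratio was -0.08, beside 0.02 for all those genes. Under normexp the counts were 0 higher and 7 lower, the latter being Stat2, Sh2b1, Ptpn1, Il6st, Il2rb, Il12rb2 and Il27ra. The share of all genes past 2-fold under normexp was not computed, so these counts have nothing to be set beside.

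Among the 4 other STATs, Stat2, a factor of type I interferon signaling, was at 449 and 157 and was 3.11-fold lower in diabetic cells, with a log2 ratio of -1.64 ± 0.21. Stat6, the interleukin-4 factor, gave no single direction, because its brightest probe had a log2 ratio of -0.49 and the others 1.17 and 0.70. Stat3, Stat5a and Stat5b had no probe past 0.5 in size.

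The 5 other SOCS box genes held none past 2-fold by the brightest probe (0 of 5). Cish, another STAT5 target that inhibits cytokine receptors, was at 110 and 119 with a log2 ratio of 0.0023, against the bounds of 2.03 and 0.41 for Socs2. Socs7 had the largest ratio of the list, 0.56 ± 0.20, and Socs5 the lowest, -0.22 ± 0.27. Socs6 resembled Socs2 in that a second, dimmer probe was at 3.36 in nondiabetic and 39.6 in diabetic cells, a log2 bound of 1.84, while its brightest probe was at 0.36.

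Of the 16 other inhibitors and adaptors, 3 were higher and 3 lower by 2-fold or more, beside 11.0% and 10.1% of all genes. Sh2b3, the adaptor Lnk that restrains Jak2 signaling in blood stem cells, was at 40.4 and 87.9 with a log2 ratio of 1.01 ± 0.23, and its dimmer probe gave 2.73 ± 0.29. Cblb and Pias3 were at 1.35 and 1.16, and the other Cblb probe at 0.49. Sh2b1, an adaptor that binds Jak2, was at 539 and 161 with a log2 ratio of -1.86 ± 0.20. Ptpn1, a phosphatase that acts on Jak2 and Tyk2, was at 216 and 67.0 with a log2 ratio of -1.81 ± 0.21, and Sh2b2 was at -1.10. Under normexp Sh2b1 and Ptpn1 stayed past 2-fold, at -1.53 and -1.23, and the other 4 did not, with Sh2b3 and Cblb both at 0.50, Pias3 at 0.42 and Sh2b2 at -0.32.

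Of 35 receptor genes, 31 had a value, 3 were detected on neither array and 1, detected in diabetic cells alone, had no bound over 1-fold. Of the 31, 1 was past 2-fold toward higher and 4 toward lower, beside 11.0% and 10.1% of all genes with a value. Il6st, which encodes gp130, the chain through which the interleukin-6 family reaches Jak1 and Stat3 and which Socs3 inhibits, was at 757 and 199, a log2 ratio of -2.04 ± 0.20. Il6st and Socs3 both read lower in diabetic cells, while the bright Stat3 probe stood at -0.08. Socs3 rests on 1 dim spot per array and came to -0.45 under normexp. Il6ra, Lifr and Il11ra1, other receptors of this family, had log2 ratios of -0.995, -0.39 and 0.04 by their brightest probes. Whether these values are linked was not tested. Il2rb and Il12rb2, chains of the interleukin-2 and interleukin-12 receptors, had log2 ratios of -3.76 and -1.85, while a second Il2rb probe was detected on neither array and a second Il12rb2 probe was at -0.98. Il27ra, detected in nondiabetic cells alone, had a bound of -3.50. Il7r was at 1.06.

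Most ligands were undetected in these cells, 15 of 20 on both arrays. A ratio or bound could be given for 5 of the 20, beside 15192 of all 21360 named genes. Il15 was at 22.6 and 82.7, a log2 ratio of 1.75, and Tslp at 65.6 and 26.8, a log2 ratio of -1.41, which came to 0.67 and -0.60 under normexp. Of 19 STAT target genes, 18 had a value and their median log2 ratio was -0.18. Pim3, a survival kinase, was at 54.4 and 170 with a log2 ratio of 1.53 ± 0.21. Ccnd1, the cell cycle cyclin D1, was at 144 and 54.0 with -1.53 ± 0.21, and Batf, a lymphoid transcription factor, at 170 and 90.8 with -1.02 ± 0.07. Under normexp none of these 3 targets was past 2-fold, with Pim3 at 0.91, Ccnd1 at -0.95 and Batf at -0.72.

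**Figure D5:**
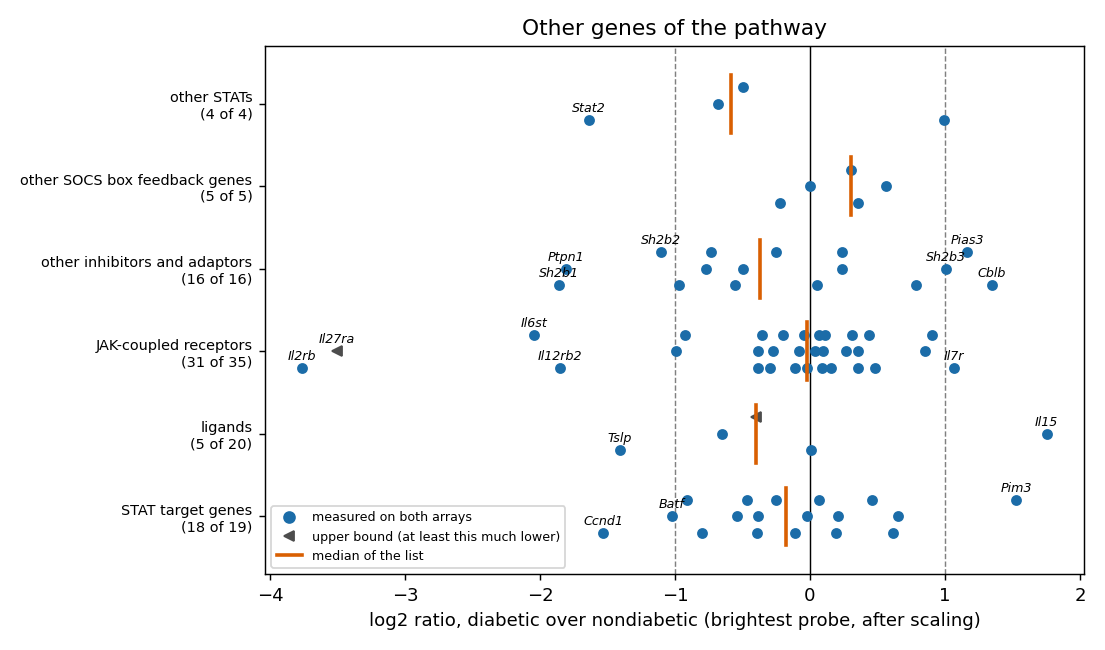
Log2 ratio of diabetic over nondiabetic for each pathway gene by its brightest probe, grouped by role, with 2-fold as dashed lines, the list's median as a bar and triangles for bounds. In this setting the lists of inhibitors, receptors, ligands and targets have genes beyond both limits, the other STATs reach the lower limit only with Stat2, and the other SOCS box genes stay between the limits.

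Other cell types present in a sort could carry pathway transcripts, so their marker lists are given. The B cell list had 4 of 5 genes detected on both arrays with summed intensities of 209 and 294, Cd79a had a log2 ratio of 1.51, and Ms4a1 was detected on neither. The T and NK cell list had 2 of 6 on both arrays, with sums of 1273 and 1240 that were mostly Cd4 (971 and 1019), while Cd3d and Cd3g were detected in nondiabetic cells alone and Cd8a and Ncr1 in neither. The megakaryocyte list, with 4 of 5 detected on both arrays, summed to 1161 and 1569, with Gp9 at a log2 ratio of 1.52, and the stroma and endothelium list to 193 and 965, most of it Pecam1, with Col1a1 and Cdh5 on neither array. The part of these lists in the values of Socs2, Socs3 and the receptors was not tested.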

How the data were processed

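The authors scanned 1 single-color Agilent array per condition and deposited the Agilent Feature Extraction 11.5.1.1 output, whose processed signal is a background-subtracted intensity that is not scaled between arrays. Each array held 62976 spots, of which 59305 were not controls. The cDNA had been amplified from 8.3 ng of RNA, and such amplification may change ratios between transcripts. A second deposited table held the same processed intensity times a constant per array.

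Spots with an outlier mark on 1 or both arrays were dropped (192 and 147 marks), log2 intensities were centered on each array's 75th percentile, and spots of a probe were averaged. Detection of a probe required the well-above-background mark on most of its spots. A bound sets the brighter value against the lowest detected signal of the other array, or against the undetected value itself if that was larger. Both arrays lay on 1 slide scanned once, and no member spot was saturated. Probes were named from their transcript identifiers through RefSeq (28319 probes). The grid names mm9, so no probe coordinates are given. Depth has no meaning for arrays, and 1 array per condition limits the precision.

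The members and lists were chosen with earlier results of these data known. All member probes are named. From each pathway list, the rule named up to 6 genes past 2-fold and detected on both arrays, or else the 2 with the highest and the lowest ratio. Il27ra, Il6ra, Lifr, Il11ra1, Stat6, Cish, Socs6 and the marker genes were chosen after their values were seen. Alternatives were quantile, loess and median centering, normexp background correction (limma 3.58.1, R 4.3.3), the authors' table, filters on dim probes, and outlier spots kept. Figures and values used Python 3.11.15.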

Additional observations from a re-analysis of the deposited data

How the results depend on the processing

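With quantile, loess or median centering, the authors' table, or outlier spots kept (chosen after seeing the data), all 13 probes of JAK, STAT and SOCS genes with a value kept their direction and their side of the 2-fold limit. Normexp correction, which adds an offset of 50 and so shrinks dim ratios, left 0 of these probes at least 2-fold higher and 0 lower, with a median log2 ratio of 0.0051 against 0.24 over the same 13 probes, Socs3 at -0.45 and the Socs2 bound at 0.65. Under it 12 of 13 kept their direction, the exception being the dimmer Stat5b probe, and 0 pathway genes were past 2-fold toward higher and 7 toward lower. Without a filter on dim probes 3 probes, all of Socs2, were at least 2-fold higher. Under normexp and without that filter, the share of all probes or genes past 2-fold was not computed. With only probes measured on both arrays, 0 were higher and the median was 0.085. The 17 pathway genes past 2-fold had the same sign under every alternative that gave them a value. With the authors' table Sh2b3 fell to 0.99, and with the mean over a gene's probes Cblb fell to 0.92. No paired analysis was possible because the comparison holds a single array per condition, and for the same reason no replicate could be left out. For Socs1, Socs2, Socs3 and Tyk2 the low signal over background limits what can be said.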
